A study of Mus musculus with 2 samples.

Results

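The genes described here encode the proteins of the small (40S) subunit of the cytosolic ribosome. The members were taken from a list of Ensembl identifiers paired with gene names, of which 28 are described, and were found by identifier in the gene tables of both libraries. Of the 28 members, 14 were listed in the tables, among 12530 mouse genes in all, and 14 were not.

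The small subunit binds the mRNA, carries the decoding centre where codon and anticodon pair, and forms the path along which the message enters and leaves the ribosome. Each subunit holds a copy of each of its proteins, and the subunits are assembled in the nucleolus around ribosomal RNA. The mRNAs of ribosomal proteins are known to begin with a 5′ terminal oligopyrimidine (TOP) sequence, a C followed by a run of C and T at the start site, through which growth signals control their loading with ribosomes.

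Ribosome-protected fragments were sequenced from spinal cord of wild-type mice and of mice heterozygous for the C201R allele of Gars (GarsC201R/+), the gene of glycyl-tRNA synthetase. Lysates of 3 animals per genotype were pooled into 1 library per genotype, so there are 2 libraries and no replicates. The sources used here do not give the age or background strain of the animals. The series asked how ribosomes occupy glycine codons in mutant tissue, and the tables hold 1 read total per gene with no positions. The comparison made here is the level of each member in the heterozygous against the wild-type library.

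The wild-type library held 7770935 gene reads and the heterozygous library 3491159, with a median of 206 and 96 reads per gene. A single library per genotype allows no replicate check, and p-values were not computed. All intervals cover counting error only, leave out variation between animals and libraries, and treat reads as independent molecules. Calls of higher or lower required a sum of at least 100 reads over the libraries, a ratio of at least 1.5-fold after TMM scaling (a normalization of library sizes), and a 95% counting interval that excluded equal levels. Less RNA per cell and fewer cells of a type cannot be told apart in such bulk tissue, nor can mRNA amount and ribosomes per mRNA, since no RNA library was part of the series. The labelled tissue was not checked against marker genes, because no table used here pairs their identifiers with names.

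The start sites of members called different between the libraries are shown first, because the TOP sequence is the regulatory element that the class is known for. Each window is 30 bases of the GRCm38.p6 RefSeq promoter table, from 10 bases before the annotated start, on the strand of the gene. Capitals mark a run of C followed by at least 4 pyrimidines (C or T), taken from the C nearest the start within 10 bases. A run at the start means that the start base is such a C. Pyrimidines directly before the marked C stay in lower case, so the whole stretch can begin further upstream. For Rps19, which has 3 annotated starts, the outermost upstream and downstream ones are shown. Rps10, Rps6 and Fau are added as examples with such a C exactly at the start, and each also has pyrimidines directly before it.

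Rps18 (chr17:33955646-33955675, minus strand): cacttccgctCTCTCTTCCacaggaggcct
Rps26 (chr10:128626487-128626516, minus strand): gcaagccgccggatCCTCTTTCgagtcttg
Rps3a1 (chr3:86142649-86142678, minus strand): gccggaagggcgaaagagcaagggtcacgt
Rps4x (chrX:102189372-102189401, minus strand): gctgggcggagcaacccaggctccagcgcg
Rps15 (chr10:80292421-80292450, plus strand): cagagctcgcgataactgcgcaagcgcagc
Rps19, upstream start (chr7:24884582-24884611, plus strand): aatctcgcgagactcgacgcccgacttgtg
Rps19, downstream start (chr7:24884903-24884932, plus strand): agcggggtgtggagggCTCTCCCacgcggt
Rps10 (chr17:27635225-27635254, minus strand): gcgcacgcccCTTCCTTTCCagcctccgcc
Rps6 (chr4:86857348-86857377, minus strand): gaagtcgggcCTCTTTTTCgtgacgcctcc
Fau (chr19:6057937-6057966, plus strand): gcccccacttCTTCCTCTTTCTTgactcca

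Of the 24 members with an entry used here, 7 (29.2%) had such a C exactly at an annotated start, against 3.01% of all 27025 genes in the table. Those 7 were Rps6, Rps10, Rps15a, Rps18, Rps21, Rps27 and Fau. Within 10 bases of the start the run was found in 15 of the 24 members (62.5%), against 34.4% of all genes. Only the strand of the gene was searched, not the opposite one, and overlapping runs were counted once per start. The run at the start was found in 3 of the 12 listed members with an entry and in 4 of the 12 members that were not listed. Of the members called lower, Rps18 carried the run at its start, Rps19 carried it near 1 of 3 annotated starts, and no run was found within 10 bases of the annotated starts of Rps3a1, Rps4x and Rps15. Rps26, called higher, carried it 4 bases downstream. Listed members that were not called or were under the read minimum carried it too. Rps10 and Rps21 had it at a start and Rps2 and Rps9 within 10 bases, while none was found for Rps3 and Rps25. These are matches to letters at annotated starts, and the absence of a match says only that the run is not in that window. No entry was used for Rps14, Rps20, Rps27a and Rps29.

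The members that were not listed are Rpsa, Rps6, Rps7, Rps12, Rps13, Rps15a, Rps16, Rps23, Rps24, Rps27, Rps27a, Rps28, Rps29 and Fau. For Rps27, which has a retrogene of its own in RefSeq, the identifier could not be checked against a table, so its missing row and the entries found under its name may belong to different genes. The members without a row include Rps6, the substrate of the S6 kinases, and Rps23, the protein that lines the decoding centre. Both members that are made as fusions, Rps27a with ubiquitin and Fau with a ubiquitin-like protein, were also among them. Of 12 proteins of the head of the subunit 7 were listed, and of 16 proteins of the body and platform 7 were listed. How rows were chosen for the tables is not given in the sources used here, and no level is stated for a member without a row. Every listed gene had at least 1 read in each library, and the lowest listed RPKM (reads scaled to gene length and to library size) was 0.183 for wild type and 0.501 for the heterozygote. At the median length of the listed members, 716 nt, those limits correspond to 1.02 and 1.26 reads.

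Ribosomal protein genes are known for many processed pseudogenes, copies of the mRNA inserted elsewhere in the genome, and reads that fit both a gene and a copy are counted or dropped by the mapping settings, which are not given. In the RefSeq table, 13 of the 14 members that were not listed had at least 1 pseudogene entry named after them, with a median of 2.5 and at most 23, for Rps12. Of the 14 listed members 9 had such an entry, with a median of 1 and at most 13, for Rps19. Rps28 was the member without a row that had 0 named entries, and the 5 listed members with 0 were Rps3, Rps9, Rps14, Rps20 and Rps21. Pseudogenes under other names were not counted. Over the 14 listed members the number of named entries had a Pearson correlation of -0.082 with log2 wild-type RPKM and a Spearman correlation of -0.17, which is too weak to be a finding. The part of these copies in which members are listed was not tested.

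**Figure D1:**
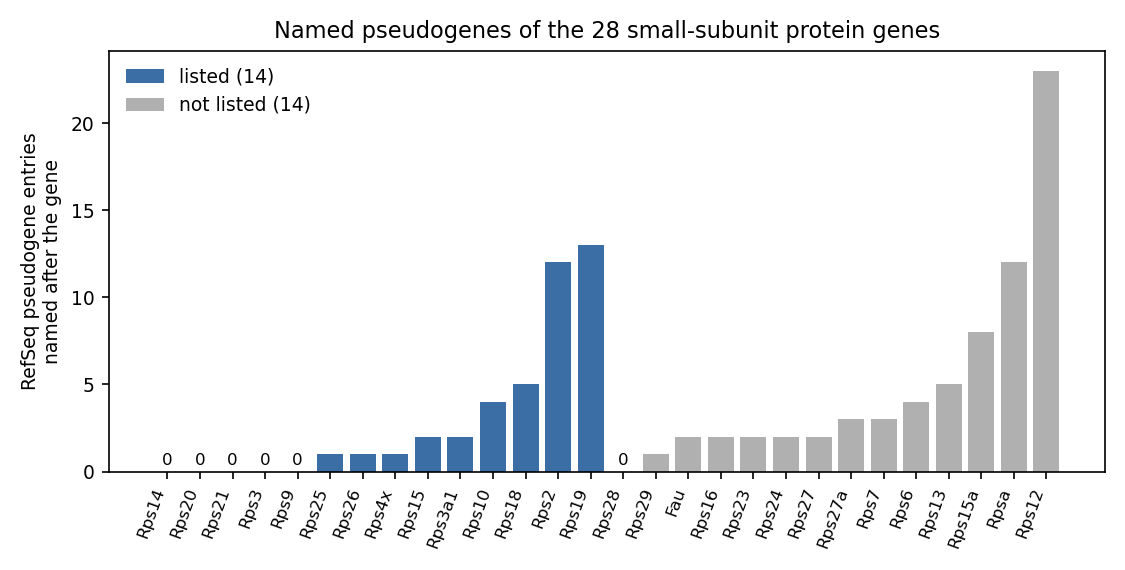
Number of RefSeq pseudogene entries named after each of the 28 members (vertical axis), with the 14 listed members in blue and the 14 members that were not listed in grey. A 0 is written where no entry was found, which was the case for 5 listed members and for Rps28.

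The listed members covered a wide range of levels within each library, although the ribosome holds their products in equal numbers. Of the gene lengths behind the RPKM values, 33.7% are multiples of 3, so they are not coding lengths. Levels of different genes therefore depend on the length used as well as on the reads. They also depend on how reads shared with copies were treated, which is not given, so they may not be the true levels. In the wild-type library RPKM ran from 0.258 for Rps10 to 161 for Rps15, and in the heterozygous library from 0.570 to 92.6 for the same genes. The robust SD of log2 RPKM over the 14 members was 2.11 for wild type and 2.85 for the heterozygote, against 2.04 and 2.03 over all 12530 genes, so the members were spread at least as widely as genes in general. The median RPKM was 16.6 for the members and 8.40 for all genes in the wild-type library, and 15.9 and 8.63 in the heterozygous library. The members above the median RPKM of all genes numbered 10 of 14 for wild type and 9 of 14 for the heterozygote.

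The order of the levels was led by 4 genes. In the wild-type library Rps15, a head protein whose tail reaches towards the decoding site, had an RPKM of 161 (95% Poisson interval 149 to 174). Rps14, a platform protein, was at 92.5 (83.9 to 102), Rps9, at the mRNA entry, at 88.0 (80.6 to 96.0), and Rps3, the head protein at the entry, at 67.9 (63.8 to 72.2). The intervals of Rps14 and Rps9 overlap, so their order is not settled by the counts, while in RPKM Rps15 lay above both and Rps3 below both. Rps3 had the most wild-type reads of the 4, 1009, at a length of 1908 nt, so its place depends on the length used. Of these 4, Rps15 had 2 named pseudogenes and the other members had 0.

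At the other end, Rps10 had 1 read in each library (interval 0.0253 to 5.57) and an RPKM of 0.258 and 0.570. Rps10 is a head protein and a target of the ubiquitin ligase that marks collided ribosomes. Rps25, a head protein near the exit site for tRNA, had 41 and 19 reads and an RPKM of 4.11 and 4.22. Among all 12530 genes Rps10 lay at percentile 0.495 of wild-type RPKM and Rps25 at percentile 30.8, whereas Rps15 lay at percentile 97.2. Rps20 was listed with the greatest length of the members, 3706 nt, and its 180 wild-type reads gave an RPKM of 6.23, the third from the bottom.

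**Figure D2:**
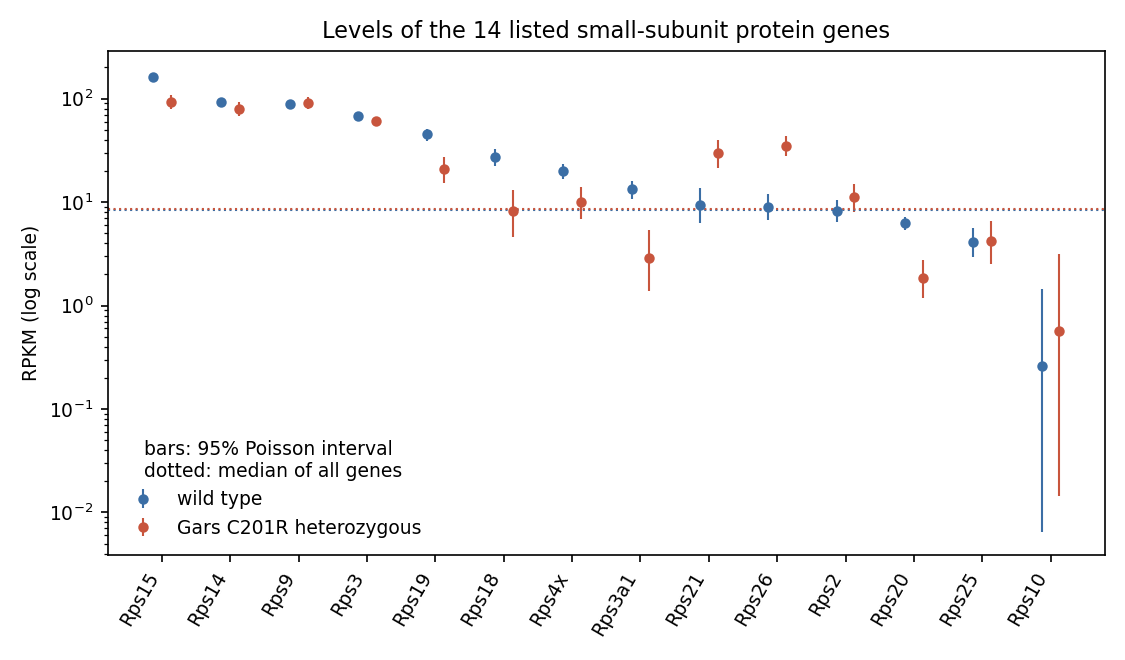
RPKM on a log scale of the 14 listed members in the wild-type (blue) and heterozygous (red) library, ordered by the wild-type level, with 95% Poisson intervals and dotted lines at the median of all genes. The 4 genes on the left lie between 60.6 and 161 in both libraries, and Rps10 on the right rests on 1 read in each.

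Between the libraries, more members were lower in the heterozygous library than higher, and those with fewer reads made up most of them. Of the 14 listed members 11 had 100 or more reads, and of these 6 were called lower (Rps3a1, Rps20, Rps18, Rps19, Rps4x and Rps15) and 1 was called higher (Rps26). Over all 9726 genes with 100 or more reads, 11.2% were called lower and 8.14% higher. The median log2 ratio of the 11 members was -0.84, against -0.034 over all those genes, with members ranging from -2.20 to 1.89. The minimum applies to summed reads, so a member that is high in the deeper wild-type library passes it more easily. Left out were Rps21, Rps25 and Rps10, at log2 ratios of 1.58, -0.0088 and 0.75. Over all 14 listed members, with no read minimum, the median was -0.24, against 0.0018 over all 12530 genes. When the wild-type library was thinned to the depth of the heterozygous library, Rps3a1, Rps18 and Rps4x fell under the read minimum and were no longer called, at log2 ratios of -2.35, -1.64 and -0.96. The ratios of the members differed in direction and size. The robust SD of the log2 ratio was 1.26 over the 11 members and 0.44 over all 9726 genes with 100 or more reads. The median was 204 reads for those members and 447 for those genes, so the sets were not matched for depth.

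The members were also described on either side of 500 reads, with a split of the background that was added after seeing the data. The 4 members with 500 or more reads (Rps3, Rps9, Rps14 and Rps15) had a median log2 ratio of -0.24, with 1 called lower and 0 higher, where 7.77% and 3.53% of all genes of that depth were called. The 7 members with 100 or more but under 500 reads had a median of -1.16, with 5 called lower and 1 higher, where 14.1% and 12.1% of all such genes were called. The robust SD of the log2 ratio was 0.93 over these 7 members and 0.52 over all such genes. With 500 or more reads it was 0.21 over the 4 members and 0.36 over all genes of that depth. Among the 5574 genes whose length lay within the range of the members, 12% were called lower and 9.87% higher. Of the 6 members called lower, 5 had at least 1 named pseudogene and Rps20 had 0. The 4 members with 100 or more reads and 0 named pseudogenes, Rps3, Rps9, Rps14 and Rps20, had a median of -0.24. Across the 11 members the log2 ratio had a Pearson correlation of 0.13 and a Spearman correlation of 0.18 with the reads, and the highest ratios, of Rps26 and Rps2, also belonged to members with few reads and at least 1 named pseudogene. The part of depth and of named copies in the result was not tested.

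**Figure D3:**
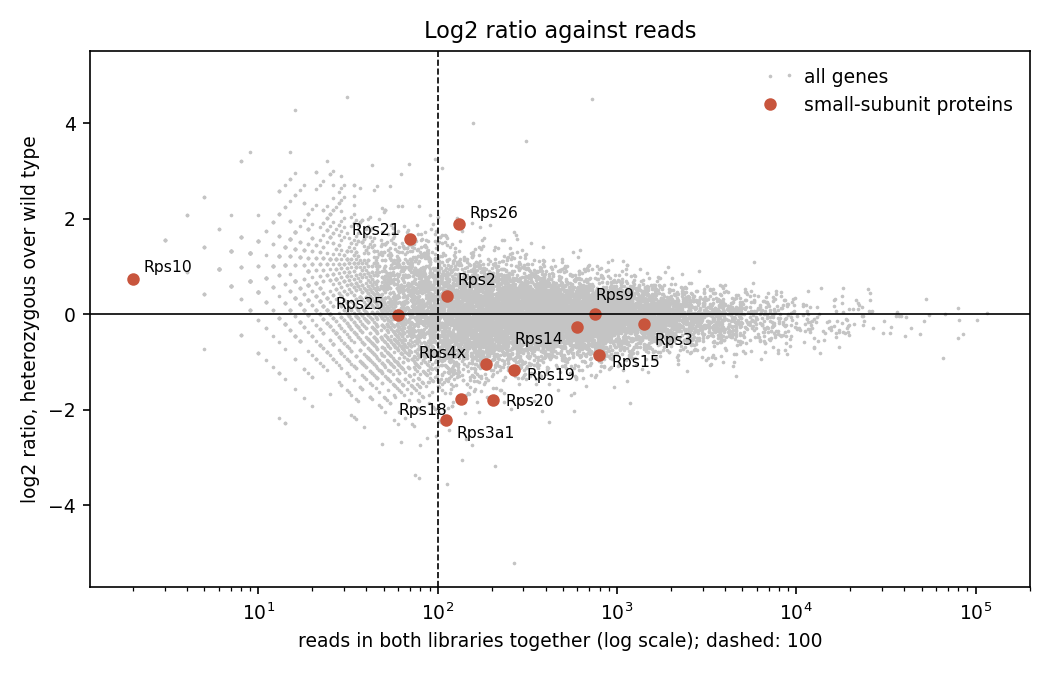
Log2 ratio (heterozygous over wild type) against the summed reads of both libraries (log scale), for all 12530 genes (grey) and the 14 listed members (red), with a dashed line at 100 reads. Rps3, Rps9, Rps14 and Rps15 lie to the right with log2 ratios between -0.84 and 0.0051, and the lowest values belong to members with 111 to 268 reads.

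Along the mRNA entry of the subunit none of the 3 tested members was called, where 11.2% of all genes with 100 or more reads were called lower and 8.14% higher. Rps3 (ENSMUSG00000030744), which lines the entry and takes part in unwinding the message, had 1009 wild-type and 407 heterozygous reads, and its log2 ratio was -0.21 (95% counting interval -0.38 to -0.042). Rps9 (ENSMUSG00000006333) had 515 and 241 reads and a log2 ratio of 0.0051 (-0.22 to 0.23), the value nearest to equal levels among the 11 members. Rps2 had 70 and 43 reads and a log2 ratio of 0.39 (-0.19 to 0.97). Rps2 had 12 named pseudogenes, and its RPKM of 8.21 and 11.2 lay far under that of Rps3 and Rps9. The fourth protein of the entry, Fau, was not listed.

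At the mRNA exit the members went both ways. Rps26 (ENSMUSG00000025362), a platform protein that touches the message upstream of the start codon, had 48 wild-type reads (35.4 to 63.6) and, in the shallower heterozygous library, 84 (67.0 to 104). Its RPKM was 9.05 and 35.0, and its log2 ratio of 1.89 (1.38 to 2.45), a 3.71-fold difference, was the highest of the 11 members. The gene lies at chr10:128624529-128626506 in RefSeq.

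Rps3a1 (ENSMUSG00000028081), also at the exit, stood lowest of all, with 101 wild-type reads (82.3 to 123) and 10 heterozygous reads (4.80 to 18.4). Its RPKM was 13.3 and 2.91, and its log2 ratio was -2.20 (-3.34 to -1.30), a level 4.60-fold higher in the wild-type library. The gene lies at chr3:86137940-86142668. Rps14 had 430 and 166 reads and a log2 ratio of -0.27 (-0.54 to -0.011), within the 1.5-fold limit. Rps28 was not listed.

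Of 5 members at the tRNA sites 2 had 100 or more reads, and both were called lower in the heterozygous library. Over all genes with 100 or more reads, 11.2% were called lower and 8.14% higher. Rps15 (ENSMUSG00000063457) had 627 and 163 reads, an RPKM of 161 and 92.6, and a log2 ratio of -0.84 (-1.10 to -0.59). It was the only member with 500 or more reads called lower, and it had 2 named pseudogenes. Rps18 (ENSMUSG00000008668), a head protein whose tail contacts the tRNA in the peptidyl site, had 118 and 16 reads and a log2 ratio of -1.76 (-2.64 to -1.02). Rps25, with 60 reads in all, was under the read minimum, at -0.0088 (-0.88 to 0.81). Rps16 and Rps23 were not listed.

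The proteins that are ubiquitylated when ribosomes stall or collide, Rps2, Rps3, Rps10 and Rps20, were all listed, and 3 of them had 100 or more reads. Such collisions are a known outcome of slow decoding. Of the 3, Rps20 (ENSMUSG00000028234) was called lower, with 180 wild-type reads (155 to 208) and 24 heterozygous reads (15.4 to 35.7), and a log2 ratio of -1.79 (-2.49 to -1.19). Its RPKM was 6.23 and 1.84. Among all genes with 100 or more reads, 11.2% were called lower and 8.14% higher. Rps2 and Rps3 were within the 1.5-fold limit, and Rps10 with 1 read in each library has an interval from -5.19 to 7.40.

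The other members called lower lie elsewhere in the subunit. Rps19 (ENSMUSG00000040952), a head protein mutated in Diamond-Blackfan anaemia, had 222 and 46 reads and a log2 ratio of -1.16 (-1.66 to -0.71). It had 13 named pseudogenes, the most of any listed member. Rps4x (ENSMUSG00000031320), the body protein encoded on the X chromosome (chrX:102184941-102189391), had 151 and 34 reads and a log2 ratio of -1.04 (-1.63 to -0.51).

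Counted by place, 4 of 5 tested members of the head were lower and 0 were higher, and 2 of 6 of the body and platform were lower and 1 was higher. Over all 9726 genes the shares were 11.2% and 8.14%. The read minimum left out Rps10 and Rps25 of the head, at log2 ratios of 0.75 and -0.0088. It also left out Rps21 of the body, at 1.58. With the wild-type library thinned, Rps18 of the head and Rps3a1 and Rps4x of the body were no longer called. The difference between the places was not tested.

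**Figure D4:**
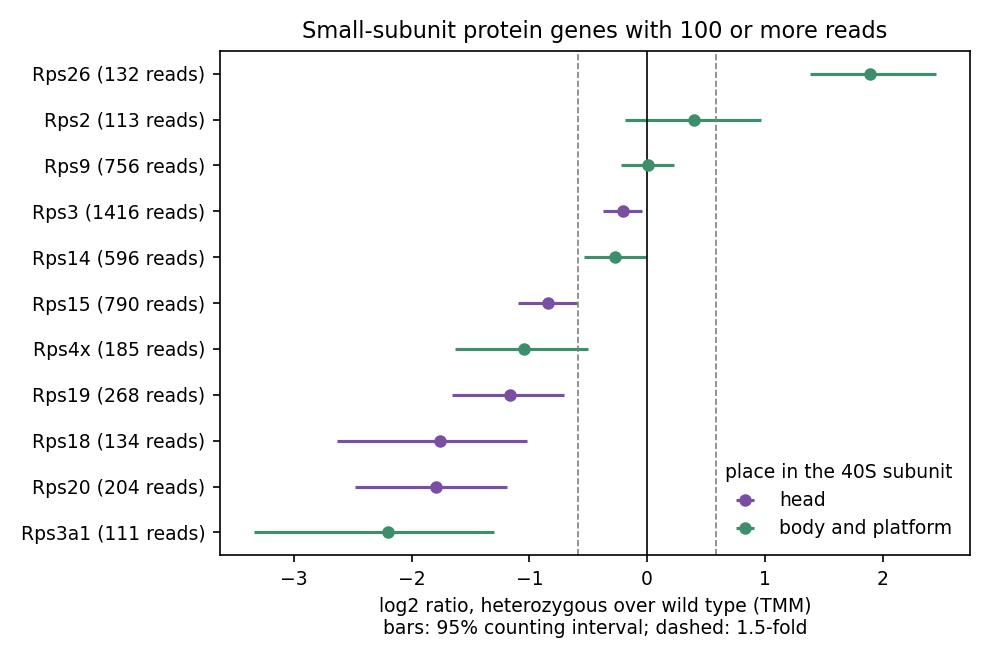
Log2 ratio, heterozygous over wild type, for the 11 members with 100 or more reads, with 95% counting intervals and dashed lines at 1.5-fold, coloured by place in the subunit. The 6 genes at the bottom, from Rps3a1 to Rps15, and Rps26 at the top were called.

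Under the read minimum were Rps21, Rps25 and Rps10. Rps21, a body protein next to Rps2 and Rpsa, had 29 wild-type and 41 heterozygous reads, an RPKM of 9.45 and 29.6, and a log2 ratio of 1.58 (0.88 to 2.34). It would have been called higher without the minimum, which weighs on members that are low in the deeper wild-type library. The ratios of the 3 therefore show little at this depth, except for the direction of Rps21 within counting error.

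The summed reads of the 14 listed members were lower in the heterozygous library, with 3542 wild-type and 1295 heterozygous reads. They were 0.0456% of the wild-type gene reads (95% Wilson interval 0.0441% to 0.0471%) and 0.0371% of the heterozygous gene reads (0.0351% to 0.0392%). The heterozygous share was thus 0.814 of the wild-type share. These shares cover only the listed members, and how reads shared with copies were treated is not given. They therefore do not give the part of translation that small-subunit proteins hold. After TMM scaling, the log2 ratio of the summed reads was -0.35 (-0.44 to -0.26). Rps3, singled out after its values were seen, held 28.5% of the members' wild-type reads and 31.4% of their heterozygous reads. Without Rps3 the TMM-scaled log2 ratio was -0.41 (-0.52 to -0.30). Rps3 alone was at -0.21, above the ratio of the sum, so leaving it out could only lower that ratio and is no check on it. The sum was not taken without Rps15, which had 627 and 163 reads and was called lower. Across the 11 members with 100 or more reads the levels kept much of their order, with a Pearson correlation of log2 RPKM between the libraries of 0.81 and a Spearman correlation of 0.81, against 0.96 and 0.95 over the 9726 genes. Over all 14 listed members they were 0.85 and 0.80. These correlations are across genes, which share both libraries and are not replicates.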

How the data were processed

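Ribosome profiling libraries of spinal cord, 1 per genotype, were analysed. The deposited counts are whole reads per gene, and the deposited RPKM values scale them to gene length and to 7790126 (wild-type) and 3520348 (heterozygous) reads in all, totals recovered here from the values. The submitters' processing notes name Bowtie 1.2.2, HTSeq 0.9.1 and GRCm38. The sources used here do not give their settings, strand, treatment of reads with several positions or annotation release, so genes with near-identical copies and overlapping genes are uncertain. Columns of another series numbered 0.

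The members and lists were chosen with earlier results of these data known. Member names come from the list itself, of which 4 genes are not reported here. Each of the 14 recovered gene lengths was within its RefSeq gene span. The span includes introns and could hardly be exceeded, so this does not check the names. All 28 symbols were in the RefSeq table (GRCm38.p6, 49997 genes), which held 0 Ensembl identifiers. Other genes of the pathway, cell type markers, glycine content and reads per codon were therefore not analysed here.

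Scaling used TMM (edgeR 4.0.16, R 4.3.3) on all 12530 genes, without the 18 ERCC spike-ins. The log2 ratio took a prior count of 0.5 and an exact conditional binomial interval at 95%. The rule was tried on simulated counts with counting error only, which cannot speak for variation between animals or libraries. Every member was to be named, with full values for those called and for the 4 highest and 4 lowest ratios, and by RPKM for the 3 highest and 3 lowest. Alternatives were scaling to total gene reads, by DESeq2 1.42.0 or to the upper quartile, other limits, a prior count of 5 and thinning. A background split by reads was added after seeing the data. Python 3.11.15 did the rest.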

Additional observations from a re-analysis of the deposited data

Results flagged for a closer look

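The ERCC spike-ins, synthetic control RNAs outside the gene comparison, made up 0.650% of the listed reads in the heterozygous library (22857 reads) and 0.00669% in the wild-type library (520 reads). The directions given for the members are relative to gene reads.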

How the results depend on the processing

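The counts of 6 members lower and 1 higher were found again with total-count, DESeq2 and upper-quartile scaling, without the gene above 1% of a library, with a prior count of 5 and with a 99% interval. Under these settings 9.45% to 11.2% of all genes were called lower and 7.56% to 9.79% higher. A minimum of 500 reads left 4 members, with 1 lower and 0 higher (7.77% and 3.53% of all genes) and a median log2 ratio of -0.24. Thinning the deeper library left 7 members with 100 or more reads, with 3 lower and 1 higher (9.53% and 7.81% of all genes) and a median of -0.29. Both settings tested fewer members, and those removed by thinning include Rps3a1, Rps18 and Rps4x, which were called lower without it. No minimum gave 6 lower and 2 higher over 14 members (10.8% and 11.0% of all genes), with a median of -0.24. A 2-fold limit left 5 lower and 1 higher (2.75% and 1.71% of all genes). Without members that have a named pseudogene the median was -0.24 over 4 members. The median over the 11 members lay between -0.84 and -0.79 under the other scalings. Depth limits Rps10, with 2 reads in all. Reads per codon could not be had, and no replicate could be left out. No paired analysis was possible because each genotype has 1 library.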
